A study of Arabidopsis thaliana with 12 samples.

Results

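Glucosinolates are sulfur-rich thioglucosides that plants of the cabbage order store as a defence. The genes of their synthesis, transport and breakdown are followed here in shoots of Arabidopsis thaliana grown at 3 boric acid supplies. The group holds 46 of the 27655 genes in the deposited count tables, taken by locus identifier: 6 MYB transcription factors, 6 genes of methionine chain elongation, 8 of the aliphatic core, 6 of the indole core, 3 of the core shared by both, 5 of aliphatic S-oxygenation, 4 of indole ring hydroxylation, 2 transporters and 6 of breakdown. The rule goes by these known roles and uses no measured value, although the genes were chosen with earlier results of these data known. All plants were wild type of the ecotype Col-0 and 14 days old, and whole shoots of about 300 seedlings were pooled for each replicate. Low-boron shoots (labelled Bminus) grew on 0.3 µM boric acid, Ctrl shoots on 30 µM and high-boron shoots (labelled Bplus) on 500 µM, on otherwise the same sucrose-containing gel medium. Each group had 2 RNA-seq libraries and 2 ribosome profiling libraries, 12 libraries in all. Ribosome profiling counts the short mRNA fragments that ribosomes protect from RNase (footprints), and RNA-seq counts the mRNA itself.

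In Arabidopsis, aliphatic glucosinolates are built from chain-elongated methionine and indole glucosinolates from tryptophan. Cytochrome P450s of the CYP79 family turn the amino acid into an aldoxime, those of the CYP83 family activate it, and a sulfur donor, a lyase, a glucosyltransferase and a sulfotransferase complete the core. On tissue damage, myrosinases, which are beta-thioglucosidases kept apart in myrosin cells and guard cells, remove the glucose, and specifier proteins decide which product forms.

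RNA libraries held 7563365 to 9256564 counts over coding sequences and footprint libraries 6903881 to 24206655, and the 46 genes took 0.777 to 0.926% of the RNA counts and 1.04 to 1.23% of the footprints. The 2 libraries of a group carry the numbers 2 and 3 in the count tables and are called library 2 and library 3 here. Levels are given as CPM, counts relative to library size after TMM scaling, always as library 2 then library 3. Differences are log2 fold changes with the standard error of edgeR's quasi-likelihood test, and a gene was called at a Benjamini-Hochberg adjusted p under 0.05 over all genes tested, in edgeR with all libraries unless another fit is named. The spread between replicates was larger for footprints, with a biological coefficient of variation of 14.9%, against 6.92% for mRNA. As a check of the tissue, 6 green-tissue markers summed to 15731 to 21025 CPM of mRNA over all libraries, with the lowest sums at low boron. The 8 root markers summed to 13.5 to 27.0 CPM, and no marker of either list was at 0 in all libraries. Several members lie beside, or a few genes from, another member of the same gene family (MAM1 and MAM3, CYP79F1 and CYP79F2, GSTF9 and GSTF10, SOT16 and SOT18, GS-OX2 to GS-OX4, MYB29 and MYB76, and, with other genes between them, CYP81F1, CYP81F3 and CYP81F4, and TGG1 and TGG2). Their sequences were not compared here, and how the counting treated reads that match more than 1 gene is not given in the sources used here, so any sharing of reads between them is unknown. The labels call the libraries biological replicates.

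At low boron the indole branch stood higher in mRNA and the main myrosinases stood lower in both mRNA and footprints. Of 45 genes tested for mRNA, 17 rose and 5 fell at low boron against Ctrl, where 19.5% of all 18403 genes tested rose, 13.8% fell and 33.3% were called in all. The median log2 fold change of the 45 genes was 0.23, and that of all genes 0.02. At high boron against Ctrl, 2 rose and 8 fell, beside 4.5% and 4.55% of all genes and 9.06% called in all, with medians of -0.10 for the 45 genes and -0.01 for all genes. Between the extremes, high against low boron, 8 rose and 24 fell, beside 19.3% and 23.1% of all genes and 42.4% called in all. Both libraries of low boron lay above both of Ctrl for 22 of the 45 genes and below for 6, where 66.6% of all genes did not overlap. At high boron against Ctrl the groups stood apart for 5 upward and 16 downward (49.5% of all genes), and high against low for 9 and 29 (72%). In footprints of the 44 genes tested the groups stood apart for 13 upward and 10 downward at low boron against Ctrl (56.3% of all genes), for 6 and 14 at high boron (36.4%) and for 8 and 18 high against low (60.7%). Footprints gave fewer calls. Of 44 genes tested, 1 rose and 3 fell at low boron against Ctrl, beside 8.05% and 6.92% of the 17697 genes tested and 15% called in all. At high boron against Ctrl no member was called by edgeR or by DESeq2, beside 1.98% of all genes (0.463% higher and 1.51% lower), and 9 members had an unadjusted p under 0.05. Between the extremes 5 members rose and 7 fell in footprints, high against low, beside 9.34% and 11.3% of all genes and 20.7% called in all. In whole shoots, fewer cells of a type and less RNA per cell cannot be told apart. The comparisons of low and of high boron against Ctrl share the Ctrl libraries. The direct comparison of high with low boron is therefore given too, as counts and, for many of the genes, singly.

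**Figure D1:**
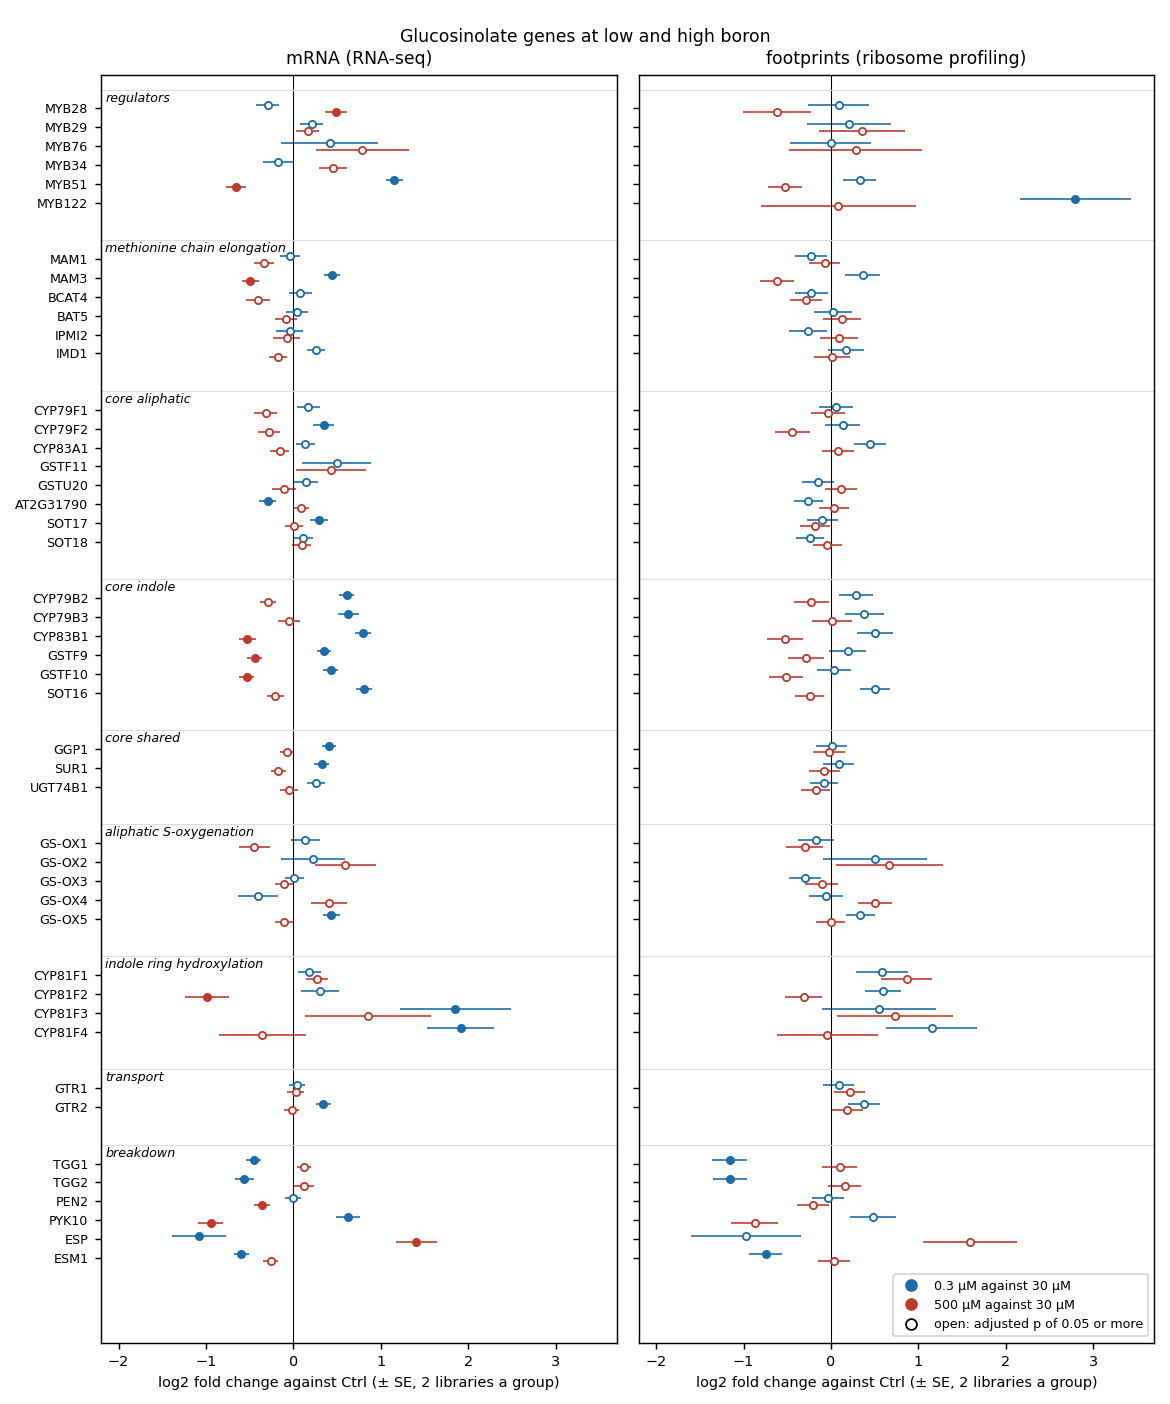
Log2 fold change against Ctrl (30 µM boric acid) with its standard error for each gene tested, in mRNA on the left and footprints on the right, at 0.3 µM boric acid (blue) and 500 µM (red), 2 libraries a group. Filled points have an adjusted p under 0.05. All 6 core indole genes lie right of zero in mRNA at 0.3 µM, and TGG1 and TGG2 lie at about -1.16 and -1.15 in footprints.

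The transcription factors that govern the pathway did not move together. MYB51 (AT1G18570) and MYB34 (AT5G60890) activate the indole genes together with MYB122 (AT1G74080), and MYB28 (AT5G61420), MYB29 (AT5G07690) and MYB76 (AT5G07700) activate the aliphatic genes. MYB51 mRNA had 77.0 and 77.5 CPM in low-boron shoots, 33.3 and 36.1 CPM in Ctrl shoots and 19.8 and 24.0 CPM in high-boron shoots. The 3 groups did not overlap, and the level was highest at low and lowest at high boron. MYB51 mRNA rose at low boron by a log2 fold change of 1.16 ± 0.10 (SE, adjusted p = 7.64e-07), a 2.23-fold difference from Ctrl, and fell at high boron, with -0.66 ± 0.11 (SE, adjusted p = 0.00196). MYB51 footprints had 25.0 and 28.5 CPM in low-boron shoots, 23.2 and 18.9 CPM in Ctrl shoots and 15.3 and 14.1 CPM in high-boron shoots. They kept the same order, but the difference from Ctrl was not called at low boron, with 0.33 ± 0.19 (SE, adjusted p = 0.277), or at high boron, with -0.53 ± 0.20 (SE, adjusted p = 0.272). Only the comparison of high with low boron was called among the footprint comparisons of MYB51, with -0.86 ± 0.19 (SE, adjusted p = 0.00484), and that call was lost without low-boron library 3 (adjusted p = 0.0622).

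MYB28 mRNA went the other way. It had 41.7 and 38.6 CPM in low-boron shoots, 52.2 and 46.3 CPM in Ctrl shoots and 79.7 and 58.8 CPM in high-boron shoots, so that the high-boron libraries were above all others, although they differed widely from each other. Both low-boron libraries lay below both of Ctrl, but that difference was not called, with a log2 fold change of -0.29 (adjusted p = 0.0988). It passed with no filter on low counts (0.0276), with a replicate block (0.0420) and in the fit of low boron and Ctrl alone (0.0206). MYB28 mRNA rose at high boron against Ctrl by 0.48 ± 0.12 (SE, adjusted p = 0.0242) on the log2 scale and, high against low, by 0.78 ± 0.13 (SE, adjusted p = 1.81e-04). The call against Ctrl was lost without high-boron library 2, where the log2 fold change was 0.26 (adjusted p = 0.280), without low-boron library 2 (adjusted p = 0.0508) and in DESeq2 (adjusted p = 0.0621). MYB34 mRNA had 9.50 and 11.9 CPM in low-boron shoots, 12.4 and 11.8 CPM in Ctrl shoots and 16.9 and 16.1 CPM in high-boron shoots and was called high against low only, with 0.63 ± 0.16 (SE, adjusted p = 0.00567), but not when low-boron library 2 was left out (adjusted p = 0.0892). MYB29 and MYB76 had no called difference in mRNA or footprints. MYB122 was too rare for the mRNA test, with 16 and 7 reads in the low-boron libraries, 0 and 3 in Ctrl and 1 and 0 in high boron. Its footprints numbered 44 and 28 in the low-boron libraries, 5 and 1 in Ctrl and 6 and 1 in high boron. Most of its few footprints thus came from low-boron shoots, and the difference from Ctrl was called, with 2.79 ± 0.63 (SE, adjusted p = 0.00767). That call was lost without low-boron library 3 (adjusted p = 0.0621), Ctrl library 2 (0.0556, with a log2 fold change of 3.83) or Ctrl library 3 (0.0531). High against low boron, MYB122 footprints fell, with -2.71 ± 0.61 (SE, adjusted p = 0.00512), and this call was kept in all 11 alternatives, with log2 fold changes between -3.91 and -2.31.

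All 6 core indole enzymes rose in mRNA at low boron against Ctrl, where 19.5% of all genes rose. Their median log2 fold change was 0.62, with a range of 0.35 to 0.81. By the test of high against low boron, all 6 had less mRNA at high boron, with a median of -0.93, where 23.1% of all genes fell. CYP83B1 (AT4G31500), which oxidises the indole aldoxime, had 613 and 632 CPM in low-boron shoots, 352 and 365 CPM in Ctrl shoots and 222 and 275 CPM in high-boron shoots. Its groups did not overlap, in the same order as MYB51. CYP83B1 mRNA rose at low boron by 0.80 ± 0.09 (SE, adjusted p = 1.30e-05) and fell at high boron, with -0.53 ± 0.09 (SE, adjusted p = 0.00249). SOT16 (AT1G74100), the sulfotransferase of the last core step for indole glucosinolates, had 174 and 175 CPM in low-boron shoots, 95.9 and 104 CPM in Ctrl shoots and 77.7 and 94.8 CPM in high-boron shoots. Both low-boron libraries were far above the other 4, and the log2 fold change at low boron was 0.81 ± 0.09 (SE, adjusted p = 1.18e-05). At high boron the difference of SOT16 from Ctrl was not called, with -0.21 ± 0.10 (SE, adjusted p = 0.229).

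CYP79B2 (AT4G39950) and CYP79B3 (AT2G22330) make the indole aldoxime from tryptophan, an intermediate that camalexin and auxin synthesis can also draw on. CYP79B2 mRNA had 103 and 114 CPM in low-boron shoots, 69.5 and 72.2 CPM in Ctrl shoots and 55.9 and 60.1 CPM in high-boron shoots, and rose at low boron by 0.61 ± 0.09 (SE, adjusted p = 6.91e-05). CYP79B3 mRNA had 45.8 and 57.1 CPM in low-boron shoots, 30.2 and 36.3 CPM in Ctrl shoots and 33.1 and 31.3 CPM in high-boron shoots, with a log2 fold change at low boron of 0.63 ± 0.12 (SE, adjusted p = 0.00104). In both genes the low-boron libraries lay above all others, while at high boron neither difference from Ctrl was called (adjusted p = 0.0613 and 0.88). GSTF9 (AT2G30860) and GSTF10 (AT2G30870) are glutathione transferases, the enzyme class assigned to adding the sulfur donor. GSTF9 mRNA had 1318 and 1368 CPM in low-boron shoots, 1003 and 1099.8 CPM in Ctrl shoots and 735 and 814 CPM in high-boron shoots. It rose at low boron by 0.35 ± 0.08 (SE, adjusted p = 0.0045) and fell at high boron, with -0.44 ± 0.08 (SE, adjusted p = 0.0037). The low-boron call of GSTF9 was lost without low-boron library 3 (adjusted p = 0.0798). GSTF10 mRNA had 596 and 633 CPM in low-boron shoots, 444 and 471 CPM in Ctrl shoots and 297 and 334 CPM in high-boron shoots, rose at low boron by 0.43 ± 0.08 (SE, adjusted p = 0.00103) and fell at high boron, with -0.53 ± 0.08 (SE, adjusted p = 8.84e-04). For both transferases the 3 groups stood apart in dose order.

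In footprints none of the 6 core indole genes was called against Ctrl, beside 15% of all genes at low boron and 1.98% at high boron. The median log2 fold change was 0.33 at low and -0.26 at high boron, and 2 of the 6 had an unadjusted p under 0.05 in each. SOT16 came nearest, with footprints of 176 and 172 CPM in low-boron shoots, 131 and 114 CPM in Ctrl shoots and 99.1 and 108 CPM in high-boron shoots and a log2 fold change at low boron of 0.50 ± 0.17 (SE, adjusted p = 0.0555), and DESeq2 called it (adjusted p = 0.0308). Footprints of CYP83B1 fell high against low boron, with -1.03 ± 0.21 (SE, adjusted p = 0.00209), and so did those of SOT16, with -0.75 ± 0.17 (SE, adjusted p = 0.00501). The other 4 core indole genes were not called in that comparison by edgeR, which called 20.7% of all genes. Their adjusted p was 0.0590 for GSTF10, 0.0803 for CYP79B2 and 0.124 for GSTF9, while DESeq2 called GSTF10 (adjusted p = 0.0138) and GSTF9 (0.0429). CYP79B2 was called in 4 of 11 alternatives, at the lowest with an adjusted p of 0.0342.

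**Figure D2:**
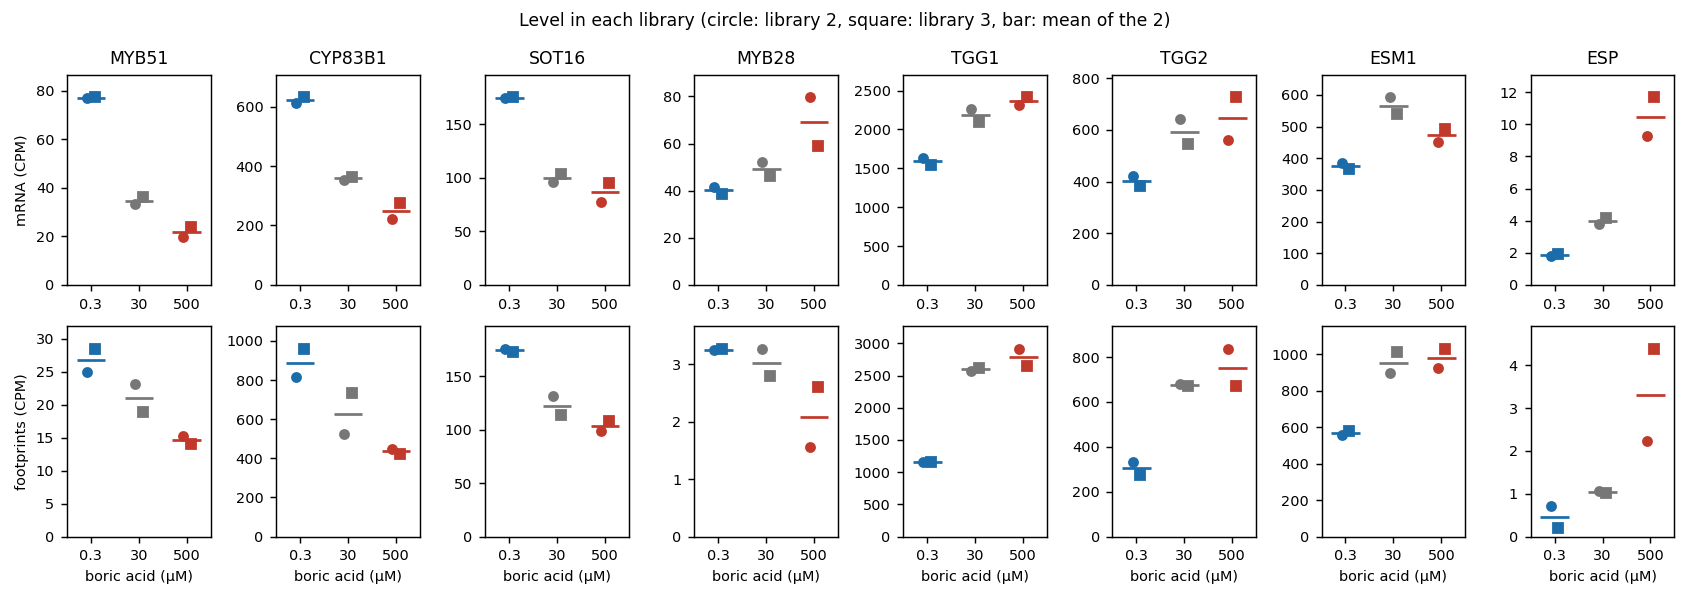
Level of 8 genes in every library, in CPM, for mRNA (top row) and footprints (bottom row) at 0.3, 30 and 500 µM boric acid. Circles are library 2, squares library 3 and bars the mean of the 2. MYB51 mRNA lies near 77 CPM in both libraries at 0.3 µM, and TGG1 footprints lie at 1163 and 1165 CPM there.

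The CYP81F enzymes hydroxylate the indole ring before it is methylated. CYP81F4 (AT4G37410) mRNA had 7.35 and 8.46 CPM in low-boron shoots, 2.32 and 1.84 CPM in Ctrl shoots and 0.514 and 2.60 CPM in high-boron shoots, and CYP81F3 (AT4G37400) mRNA had 2.83 and 2.15 CPM in low-boron shoots, 0.111 and 1.27 CPM in Ctrl shoots and 1.80 and 0.758 CPM in high-boron shoots. Both were rare transcripts, with 21 and 16 reads for CYP81F4 and 1 and 11 for CYP81F3 in the Ctrl libraries. At low boron CYP81F4 rose by 1.91 ± 0.38 (SE, adjusted p = 0.00133) on the log2 scale and CYP81F3 by 1.85 ± 0.63 (SE, adjusted p = 0.0348). The value of CYP81F3 depended on which Ctrl library was used. It was 0.97 without Ctrl library 2 (adjusted p = 0.229) and 4.32 without Ctrl library 3, and its call was also lost without either low-boron library (0.195 without library 2 and 0.0891 without library 3) and in DESeq2 (0.106). CYP81F2 (AT5G57220), known from the response to pathogens, had mRNA of 19.5 and 16.6 CPM in low-boron shoots, 10.95 and 18.3 CPM in Ctrl shoots and 5.52 and 8.99 CPM in high-boron shoots. The high-boron libraries were the lowest, and CYP81F2 mRNA fell at high boron against Ctrl, with -0.99 ± 0.25 (SE, adjusted p = 0.0243). The 2 Ctrl libraries of this gene differed, and the call was lost without high-boron library 2 (adjusted p = 0.233) or Ctrl library 3 (0.157, with a log2 fold change of -0.57). High against low boron, CYP81F2 fell in mRNA, with -1.29 ± 0.25 (SE, adjusted p = 6.92e-04), and in footprints, with -0.91 ± 0.21 (SE, adjusted p = 0.00538), the footprint call being lost without high-boron library 3 (adjusted p = 0.0592). CYP81F1 (AT4G37430) was called in no comparison, except with no filter on low counts, where its footprints stood above Ctrl in low-boron shoots (adjusted p = 0.0499) and in high-boron shoots (0.00788). CYP81F4 also fell in mRNA high against low boron, with -2.27 ± 0.40 (SE, adjusted p = 3.81e-04), a value that was -3.91 without high-boron library 3.

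The aliphatic enzymes were called against Ctrl at no more than the share of all genes. Among mRNAs of the 19 enzymes, 4 were higher and 1 lower at low boron than in Ctrl by the test, beside 33.3% of all genes called, with a median log2 fold change of 0.14. At high boron 1 of the 19 fell, beside 9.06% of all genes called, with a median of -0.11. High against low boron, a comparison without Ctrl libraries, 2 of the 19 rose and 9 fell. That is 57.9% called, beside 42.4% of all genes, with a median of -0.28 and 16 of the 19 values negative. DESeq2 called 2 higher and 5 lower, beside 29.3% of all genes. In footprints none of the 18 tested was called against Ctrl at either supply by edgeR or DESeq2. In edgeR 15% of all genes were called at low and 1.98% at high boron, and 1 and 3 of the 18 had an unadjusted p under 0.05. The Ctrl RNA libraries differed for these genes: library 3 was above library 2 for 17 of the 19, by a median of 0.38 on the log2 scale, where the difference between the low-boron libraries was 0.18 and that between the high-boron libraries 0.10. At low boron the median log2 fold change of the 19 mRNAs was 0.37 without Ctrl library 3 and -0.08 without Ctrl library 2. At high boron it was -0.32 without Ctrl library 2 and 0.07 without Ctrl library 3. The median of the aliphatic mRNAs against Ctrl therefore changed sign with the Ctrl library. In footprints it was the low-boron libraries that differed, with library 3 above library 2 for 17 of 18 genes by a median of 0.35, against 9 of 18 and 0.02 in Ctrl. The median footprint log2 fold change at low boron, -0.08 with all libraries, was 0.04 without low-boron library 2 and -0.22 without low-boron library 3.

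**Figure D3:**
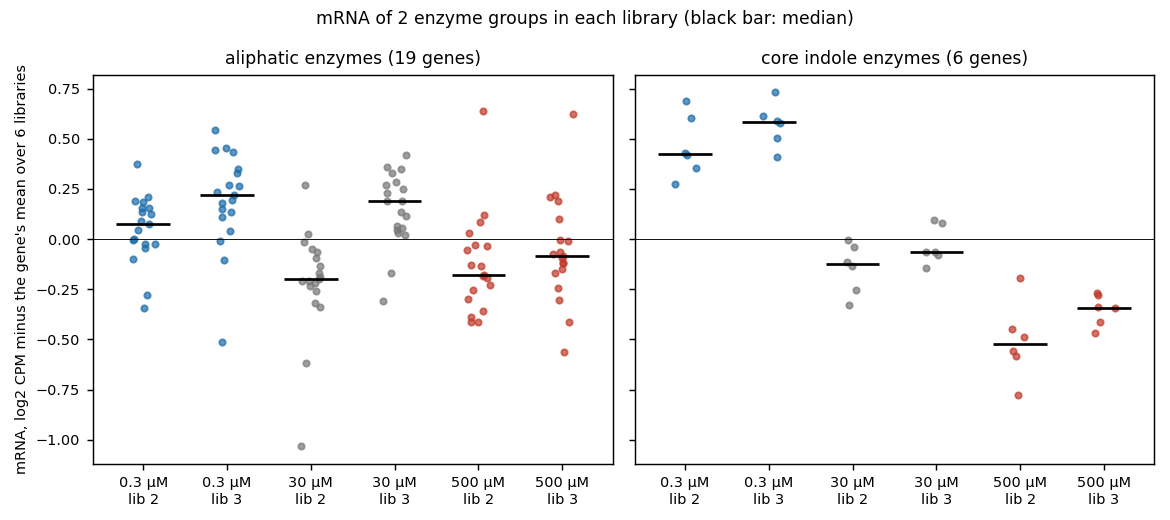
mRNA of the 19 aliphatic enzymes (left) and the 6 core indole enzymes (right) in each RNA library, as log2 CPM minus the mean of the gene over the 6 libraries, with points for genes and black bars for medians. The medians of the 2 libraries at 30 µM lie on opposite sides of zero for the aliphatic enzymes, with exceptions among single genes. The indole enzymes lie above zero in both libraries at 0.3 µM and below in both at 500 µM.

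MAM3 (AT5G23020), a methylthioalkylmalate synthase able to make the longer side chains, was the aliphatic gene called against Ctrl at both supplies. MAM3 mRNA had 86.2 and 97.0 CPM in low-boron shoots, 66.0 and 68.7 CPM in Ctrl shoots and 50.8 and 45.0 CPM in high-boron shoots, and its Ctrl libraries were close together. The groups did not overlap. MAM3 rose at low boron by 0.44 ± 0.09 (SE, adjusted p = 0.00164) and fell at high boron, with -0.49 ± 0.10 (SE, adjusted p = 0.00442), the high-boron call being lost without high-boron library 3 (adjusted p = 0.0538). It fell high against low boron in mRNA, with -0.94 ± 0.09 (SE, adjusted p = 1.90e-06), and in footprints, with -0.98 ± 0.20 (SE, adjusted p = 0.00232), the footprint call being lost without low-boron library 3 (adjusted p = 0.0684). MAM1 (AT5G23010), the synthase of shorter chains next to it in the genome, had mRNA of 319 and 363 CPM in low-boron shoots, 299.8 and 402 CPM in Ctrl shoots and 260.3 and 295 CPM in high-boron shoots and was called in no comparison with all libraries. High against low boron its mRNA log2 fold change of -0.30 ± 0.12 (SE, adjusted p = 0.0572) passed in 5 of 11 alternatives, and that against Ctrl at high boron, -0.34 ± 0.12 (SE, adjusted p = 0.0986), passed in 3 of 11, being -0.53 without Ctrl library 2 (adjusted p = 3.29e-04). The other chain elongation genes were the aminotransferase BCAT4 (AT3G19710), the chloroplast 2-oxo acid transporter BAT5 (AT4G12030), the isomerase subunit IPMI2 (AT2G43100) and the dehydrogenase IMD1 (AT5G14200). None of these 4 was called against Ctrl with all libraries, with log2 fold changes of mRNA at low boron between -0.04 and 0.26. High against low boron, mRNA fell for BCAT4, with -0.48 (adjusted p = 0.0098), and IMD1, with -0.44 (adjusted p = 0.00386). The call was lost in 3 of 11 alternatives for BCAT4 and in 1 for IMD1. For IPMI2, with 78.5 and 90.9 CPM in low-boron shoots, 67.5 and 107 CPM in Ctrl shoots and 86.0 and 79.9 CPM in high-boron shoots, the value turned on the Ctrl library, being -0.04 with both, -0.34 without Ctrl library 2 and 0.33 without Ctrl library 3, and past the threshold when either was left out.

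In the aliphatic core, CYP79F2 (AT1G16400), which makes aldoximes from long-chain methionine derivatives, had mRNA of 33.4 and 40.0 CPM in low-boron shoots, 28.0 and 29.6 CPM in Ctrl shoots and 25.6 and 22.0 CPM in high-boron shoots. It rose at low boron by 0.35 ± 0.12 (SE, adjusted p = 0.0385). SOT17 (AT1G18590), an aliphatic sulfotransferase, had 55.9 and 59.1 CPM in low-boron shoots, 42.8 and 51.3 CPM in Ctrl shoots and 44.4 and 50.02 CPM in high-boron shoots, with a log2 fold change at low boron of 0.29 ± 0.10 (SE, adjusted p = 0.0446). AT2G31790, which the files and the reference table name by its identifier only, had 70.6 and 83.4 CPM in low-boron shoots, 91.3 and 97.3 CPM in Ctrl shoots and 95.3 and 104 CPM in high-boron shoots and fell at low boron, with -0.29 ± 0.09 (SE, adjusted p = 0.0274). In each of these 3 genes the low-boron libraries lay outside the Ctrl range, by a small margin. The call of CYP79F2 was lost without low-boron library 3 (log2 fold change 0.21, adjusted p = 0.367) or Ctrl library 2 (adjusted p = 0.106), that of SOT17 without any of 4 libraries (adjusted p = 0.111 and 0.243 without low-boron library 2 and 3, 0.304 without Ctrl library 2 and 0.0571 without high-boron library 2), and that of AT2G31790 without low-boron library 2 (log2 fold change -0.17, adjusted p = 0.332) or Ctrl library 3 (adjusted p = 0.0819). All 3 calls were lost in DESeq2 (adjusted p = 0.220, 0.245 and 0.0643), and those of CYP79F2 and SOT17 also with size factors in place of TMM (0.0542 and 0.0732) and in the fit of low boron and Ctrl alone (0.0660 and 0.0824). CYP79F1 (AT1G16410), the cytochrome P450 next to CYP79F2, and CYP83A1 (AT4G13770), which oxidises the aliphatic aldoximes, were not called against Ctrl, nor were GSTU20 (AT1G78370), GSTF11 (AT3G03190) and SOT18 (AT1G74090). GSTF11 had too few footprints to test, at 0.288 to 1.55 CPM. High against low boron, mRNA fell for CYP79F2 (-0.63, adjusted p = 8.86e-04), CYP79F1 (-0.48, 0.00819), CYP83A1 (-0.29, 0.0439) and SOT17 (-0.28, 0.0423). That of AT2G31790 rose (0.38, 0.00498). The CYP79F2 call was kept in all 11 alternatives, and each of the others was lost in 2 to 5. CYP79F2 footprints were not called there (-0.58, adjusted p = 0.0521) but passed in 7 of 11 alternatives.

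GS-OX5 (AT1G12140), one of 5 flavin monooxygenases that oxidise the sulfur of the methylthio side chain, had mRNA of 55.6 and 64.8 CPM in low-boron shoots, 46.4 and 42.7 CPM in Ctrl shoots and 42.2 and 40.6 CPM in high-boron shoots. Both low-boron libraries lay above the rest, and its log2 fold change at low boron was 0.43 ± 0.10 (SE, adjusted p = 0.0034), which did not pass when low-boron library 3 was left out (adjusted p = 0.0849). GS-OX4 (AT1G62570) ran in the opposite direction, with mRNA of 8.71 and 7.39 CPM in low-boron shoots, 12.7 and 8.53 CPM in Ctrl shoots and 16.4 and 12.02 CPM in high-boron shoots and footprints of 14.5 and 18.0 CPM in low-boron shoots, 16.4 and 17.3 CPM in Ctrl shoots and 24.7 and 23.2 CPM in high-boron shoots. It was called high against low boron, in mRNA with 0.81 ± 0.22 (SE, adjusted p = 0.00836) and in footprints with 0.57 ± 0.19 (SE, adjusted p = 0.0449). The mRNA call of GS-OX4 was lost without high-boron library 2 or low-boron library 3. Its footprint call was lost in 7 of 11 alternatives. These were leaving out any of the 4 libraries compared, DESeq2 (adjusted p = 0.0934), its size factors in edgeR (0.0506) and no filter on low counts (0.0520). GS-OX1 (AT1G65860), GS-OX2 (AT1G62540) and GS-OX3 (AT1G62560) were not called against Ctrl. High against low boron, mRNA fell for GS-OX5, with -0.54 (adjusted p = 5.36e-04), and GS-OX1, with -0.58 (adjusted p = 0.0137). The GS-OX1 call was lost in 3 of 11 alternatives.

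Among the 3 core enzymes that serve both branches, GGP1 (AT4G30530), the gamma-glutamyl peptidase that trims the glutathione conjugate, had mRNA of 189.6 and 197 CPM in low-boron shoots, 140.2 and 151 CPM in Ctrl shoots and 134 and 143 CPM in high-boron shoots and rose at low boron by 0.41 ± 0.08 (SE, adjusted p = 0.00104). SUR1 (AT2G20610), the C-S lyase, had 175 and 171 CPM in low-boron shoots, 129 and 148 CPM in Ctrl shoots and 119.8 and 125 CPM in high-boron shoots and rose by 0.33 ± 0.08 (SE, adjusted p = 0.00779). In both, the low-boron libraries were the highest and the high-boron libraries overlapped or lay close to Ctrl. The SUR1 call was lost without low-boron library 2 (adjusted p = 0.0795), low-boron library 3 (0.0550) or Ctrl library 2 (0.0706). UGT74B1 (AT1G24100), the glucosyltransferase, was not called at low boron, with 0.26 ± 0.10 (SE, adjusted p = 0.058), although it passed in 4 of 11 alternatives. High against low boron, mRNA fell for GGP1 (-0.48, adjusted p = 2.11e-04), SUR1 (-0.50, 2.58e-04) and UGT74B1 (-0.31, 0.0217). Only the UGT74B1 call was lost in some alternatives, 3 of 11. Footprints of these 3 genes had log2 fold changes between -0.08 and 0.09 at low boron, none with an unadjusted p under 0.05 in edgeR. Of the 2 importers that load glucosinolates into the phloem, GTR2 (AT5G62680) mRNA had 126 and 137 CPM in low-boron shoots, 102 and 105 CPM in Ctrl shoots and 107 and 98.0 CPM in high-boron shoots and rose at low boron by 0.34 ± 0.08 (SE, adjusted p = 0.00497), which did not pass when low-boron library 3 was left out (adjusted p = 0.0944). GTR1 (AT3G47960) had 62.9 and 57.6 CPM in low-boron shoots, 58.6 and 58.1 CPM in Ctrl shoots and 55.6 and 63.0 CPM in high-boron shoots. It was called in no comparison. GTR2 mRNA fell high against low boron, with -0.36 (adjusted p = 0.0027), a call lost in 1 of 11 alternatives.

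Breakdown genes moved in both directions. TGG1 (AT5G26000) and TGG2 (AT5G25980) encode the classical shoot myrosinases. TGG1 mRNA had 1638 and 1543 CPM in low-boron shoots, 2263 and 2096 CPM in Ctrl shoots and 2319.7 and 2417 CPM in high-boron shoots, and TGG1 footprints had 1163 and 1165 CPM in low-boron shoots, 2578 and 2623 CPM in Ctrl shoots and 2918 and 2648 CPM in high-boron shoots. In both assays the low-boron libraries lay below all others, and the gap was wider in footprints. TGG1 fell at low boron against Ctrl in mRNA, with a log2 fold change of -0.45 ± 0.08 (SE, adjusted p = 5.47e-04), and in footprints, with -1.16 ± 0.20 (SE, adjusted p = 0.00114), which left 0.448 times the Ctrl footprints. TGG2 mRNA had 422 and 383 CPM in low-boron shoots, 640.4 and 546 CPM in Ctrl shoots and 562 and 727 CPM in high-boron shoots, and TGG2 footprints had 331 and 276 CPM in low-boron shoots, 682 and 670.4 CPM in Ctrl shoots and 838 and 669.6 CPM in high-boron shoots. The pattern was that of TGG1. TGG2 fell at low boron in mRNA, with -0.56 ± 0.11 (SE, adjusted p = 0.00145), and in footprints, with -1.15 ± 0.19 (SE, adjusted p = 9.82e-04). At high boron neither myrosinase was called against Ctrl in either assay, with log2 fold changes between 0.10 and 0.16 for the 4 values. The falls of TGG1 and TGG2 at low boron were called under every alternative tried. High against low boron, TGG1 rose by 0.57 in mRNA (adjusted p = 4.95e-05) and 1.26 in footprints (3.31e-04). TGG2 rose by 0.68 (2.15e-04) and 1.31 (1.81e-04). All of these rises were called under every alternative too.

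ESM1 (AT3G14210), a modifier that shifts breakdown towards isothiocyanates, had mRNA of 383 and 366 CPM in low-boron shoots, 593 and 539 CPM in Ctrl shoots and 452 and 493 CPM in high-boron shoots and footprints of 559.7 and 579 CPM in low-boron shoots, 897 and 1011 CPM in Ctrl shoots and 924 and 1031 CPM in high-boron shoots. Its low-boron libraries were the lowest in both assays. High against low boron, ESM1 rose by 0.34 in mRNA (adjusted p = 0.0044) and 0.78 in footprints (0.00758). These 2 calls were lost in 1 and 2 of 11 alternatives. ESM1 fell at low boron in mRNA, with -0.59 ± 0.08 (SE, adjusted p = 6.11e-05), and in footprints, with -0.75 ± 0.19 (SE, adjusted p = 0.014). The footprint call was lost without low-boron library 2 (adjusted p = 0.107), low-boron library 3 (0.115) or Ctrl library 3 (0.0731).

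The sum of 6 guard cell markers, of which only FAMA also concerns myrosin cells, was lower at low boron too. Summed over 6 markers, mRNA was 67.0 to 71.2 CPM in low-boron libraries, 89.2 to 100.4 CPM in Ctrl and 116.6 to 130.6 CPM in high boron, and footprints were 18.3 to 23.5 CPM in low boron, 40.5 to 40.8 CPM in Ctrl and 38.6 to 41.7 CPM in high boron. No marker was at 0 in all libraries. FAMA, the transcription factor that specifies both guard cells and myrosin cells, fell at low boron in mRNA, with -0.52 ± 0.12 (SE, adjusted p = 0.00358), and in footprints, with -0.96 ± 0.21 (SE, adjusted p = 0.00597). In mRNA 3 of the 6 markers fell at low boron against Ctrl, beside 13.8% of all genes, and in footprints 3 of the 5 tested, beside 6.92%. At high boron the marker mRNA sum was above Ctrl in both libraries, while the footprint sum spanned that of Ctrl. Of the single markers, KAT1, a guard cell potassium channel, rose, with 0.69 ± 0.15 (SE, adjusted p = 0.00768). TGG1 and TGG2 were not called at high boron. ESM1 mRNA lay below both Ctrl libraries there, with -0.26 ± 0.08 (SE, adjusted p = 0.0658). The green-tissue marker sum was lower at low boron too. Its mRNA was 15731 to 15827 CPM there, against 19375 to 21025 CPM in Ctrl and 18612 to 19591 CPM in high boron. Its footprints were 12243 to 13953 CPM, against 16940 to 20037 CPM and 14154.5 to 19192 CPM. The sum of 4 phloem companion cell markers overlapped Ctrl at low boron in both assays. The part of guard cells, myrosin cells and green tissue in the falls of TGG1, TGG2 and ESM1 was not tested.

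ESP (AT1G54040), the epithiospecifier protein, which diverts breakdown towards nitriles and whose activity is known to be low or missing in Col-0, was a rare transcript. ESP mRNA had 1.81 and 1.91 CPM in low-boron shoots, 3.76 and 4.15 CPM in Ctrl shoots and 9.24 and 11.7 CPM in high-boron shoots, from 16 and 16 reads in low boron, 34 and 36 in Ctrl and 72 and 108 in high boron. The groups did not overlap, and the level was lowest at low and highest at high boron. ESP mRNA fell at low boron, with -1.08 ± 0.31 (SE, adjusted p = 0.0141), and rose at high boron, with 1.41 ± 0.23 (SE, adjusted p = 0.00133). It rose 5.63-fold high against low boron in mRNA, a log2 fold change of 2.49 ± 0.27 (SE, adjusted p = 3.40e-06), and in footprints by 2.56 ± 0.54 (SE, adjusted p = 0.00313). The low-boron call was lost without low-boron library 2 (adjusted p = 0.0847) or library 3 (0.0686) and in DESeq2 (0.0504). ESP footprints numbered 17 and 2 in low boron, 13 and 7 in Ctrl and 30 and 32 in high boron, and the footprint call was lost without high-boron library 3 (adjusted p = 0.0514) and its log2 fold change was 3.97 without low-boron library 2.

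The atypical myrosinases had other patterns. PYK10 (AT3G09260), the beta-glucosidase of endoplasmic reticulum bodies in roots and seedlings, had mRNA of 489 and 502 CPM in low-boron shoots, 255 and 388 CPM in Ctrl shoots and 153 and 181 CPM in high-boron shoots. It rose at low boron by 0.63 ± 0.14 (SE, adjusted p = 0.00313) and fell at high boron, with -0.94 ± 0.14 (SE, adjusted p = 7.75e-04). The Ctrl libraries of PYK10 were far apart. Without Ctrl library 2 the low-boron log2 fold change was 0.35 and without Ctrl library 3 it was 0.96, both still called, and the high-boron value was -0.61 without Ctrl library 3. DESeq2 did not call the low-boron difference (adjusted p = 0.0946). In footprints the high-boron difference of PYK10 from Ctrl was not called, with -0.87 (adjusted p = 0.144). It passed with no filter on low counts (8.76e-04) and with a replicate block (0.0274), and ran from -1.30 to -0.40 over the alternatives. The comparison of high with low boron, which uses no Ctrl library, gave -1.57 ± 0.15 (SE, adjusted p = 7.80e-07) in mRNA and -1.35 ± 0.27 (SE, adjusted p = 0.00207) in footprints. Root markers, where PYK10 is abundant, summed to 15.1 to 18.7 CPM of mRNA in low boron, 22.5 to 27.0 CPM in Ctrl and 13.5 to 19.5 CPM in high boron, a sum made up almost wholly of NRT2.1, a nitrate transporter. The other 7 root markers, split off after the values were seen, summed to 1.07 to 1.92 CPM in low boron, 0.922 to 1.11 CPM in Ctrl and 0.385 to 0.866 CPM in high boron, each from 0 to 6 reads in a library. The sum of all 8 was thus highest in Ctrl, whereas without NRT2.1 high boron was lowest and 1 low-boron library highest, and the part of root tissue in the PYK10 differences was not tested. PEN2 (AT2G44490), a myrosinase that acts on indole glucosinolates in living cells under fungal attack, had mRNA of 286 and 288 CPM in low-boron shoots, 297 and 279 CPM in Ctrl shoots and 203 and 245 CPM in high-boron shoots. Only the high-boron libraries stood apart, and PEN2 fell at high boron, with -0.36 ± 0.09 (SE, adjusted p = 0.0209). That call was lost without high-boron library 2 (log2 fold change -0.23, adjusted p = 0.215), without either low-boron library (0.0596 and 0.0588) and in the fit of high boron and Ctrl alone (0.0602).

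Other genes tied to the pathway were read from a list of 41 further genes, of which 33 could be tested. In mRNA 14 rose and 3 fell at low boron against Ctrl, none rose and 13 fell at high boron, and 1 rose and 21 fell high against low, beside 33.3%, 9.06% and 42.4% of all genes called. In footprints the counts were 4 up and 1 down at low boron, 0 and 1 at high boron, and 1 and 10 high against low, beside 15%, 1.98% and 20.7% of all genes, and the low-boron share was close to that of all genes. All 6 genes of tryptophan synthesis, which supplies the indole branch and protein synthesis alike, rose in mRNA at low boron, with log2 fold changes of 0.53 to 1.06, and all 6 fell at high boron, with -0.61 to -0.33. ASA1 (AT5G05730), the alpha subunit of anthranilate synthase, rose at low boron by 0.95 ± 0.10 (SE, adjusted p = 5.66e-06) in mRNA and by 0.72 ± 0.17 (SE, adjusted p = 0.0103) in footprints, and fell in mRNA at high boron, with -0.61 ± 0.11 (SE, adjusted p = 0.00228). TSA1 (AT3G54640), a tryptophan synthase alpha subunit, rose in mRNA by 1.06 ± 0.11 (SE, adjusted p = 2.93e-06), ASB1 (AT1G25220), the anthranilate synthase beta subunit, by 1.01 ± 0.10 (SE, adjusted p = 2.13e-06), and TRP1 (AT5G17990), the phosphoribosylanthranilate transferase, by 1.00 ± 0.08 (SE, adjusted p = 3.01e-07). AT2G04400 rose by 0.99 ± 0.08 (SE, adjusted p = 5.60e-07). IGMT2 (AT1G21120), an indole glucosinolate methyltransferase, fell at high boron in mRNA, with -1.41 ± 0.28 (SE, adjusted p = 0.00558), and in footprints, with -1.44 ± 0.25 (SE, adjusted p = 0.00595). IGMT3 (AT1G21110), of the same tandem family, fell in mRNA, with -1.30 ± 0.37 (SE, adjusted p = 0.0434). PEN3 (AT1G59870), an ABC transporter that acts in the same defence as PEN2, also fell at high boron, with -0.70 ± 0.12 (SE, adjusted p = 0.00191), and so did PCS1 (AT5G44070), a phytochelatin synthase linked to that defence, with -0.58 ± 0.10 (SE, adjusted p = 0.00137). In footprints at low boron, NSP1 (AT3G16400), a nitrile specifier protein, rose by 0.60 ± 0.17 (SE, adjusted p = 0.0284), MVP1 (AT1G54030), a lipase-like protein that binds myrosinase, by 0.58 ± 0.17 (SE, adjusted p = 0.0364) and TRP1 by 0.53 ± 0.16 (SE, adjusted p = 0.0377). SDI1 (AT5G48850), a repressor of glucosinolate synthesis under sulfur deficiency, fell in footprints, with -1.28 ± 0.31 (SE, adjusted p = 0.0117).

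Footprints per mRNA, the CPM of footprints over the CPM of mRNA of the same gene, compare how densely a message is occupied by ribosomes relative to other messages. Over 17306 genes the median in Ctrl was -0.41 on the log2 scale, and the middle 80% of genes lay between -1.86 and 0.72. The 43 members with both values had a median of 0.19, with 30 above the median of all genes, 11 in the highest 10% and 3 in the lowest 10% of all genes. CYP81F2 stood highest with 1.68, followed by GGP1 with 1.56, CYP79B2 with 1.29 and GTR1 with 1.15. The lowest were MYB28 with -4.02 and MYB29 with -3.73, at percentiles 0.43 and 0.71 of all genes, while the third aliphatic regulator, MYB76, had -0.75, within the middle 80% of genes. MYB28 mRNA was at 52.2 and 46.3 CPM in Ctrl while its footprints were at 3.27 and 2.79 CPM. MYB51 had -0.72, well above MYB28, and ESP had -1.92.

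**Figure D4:**
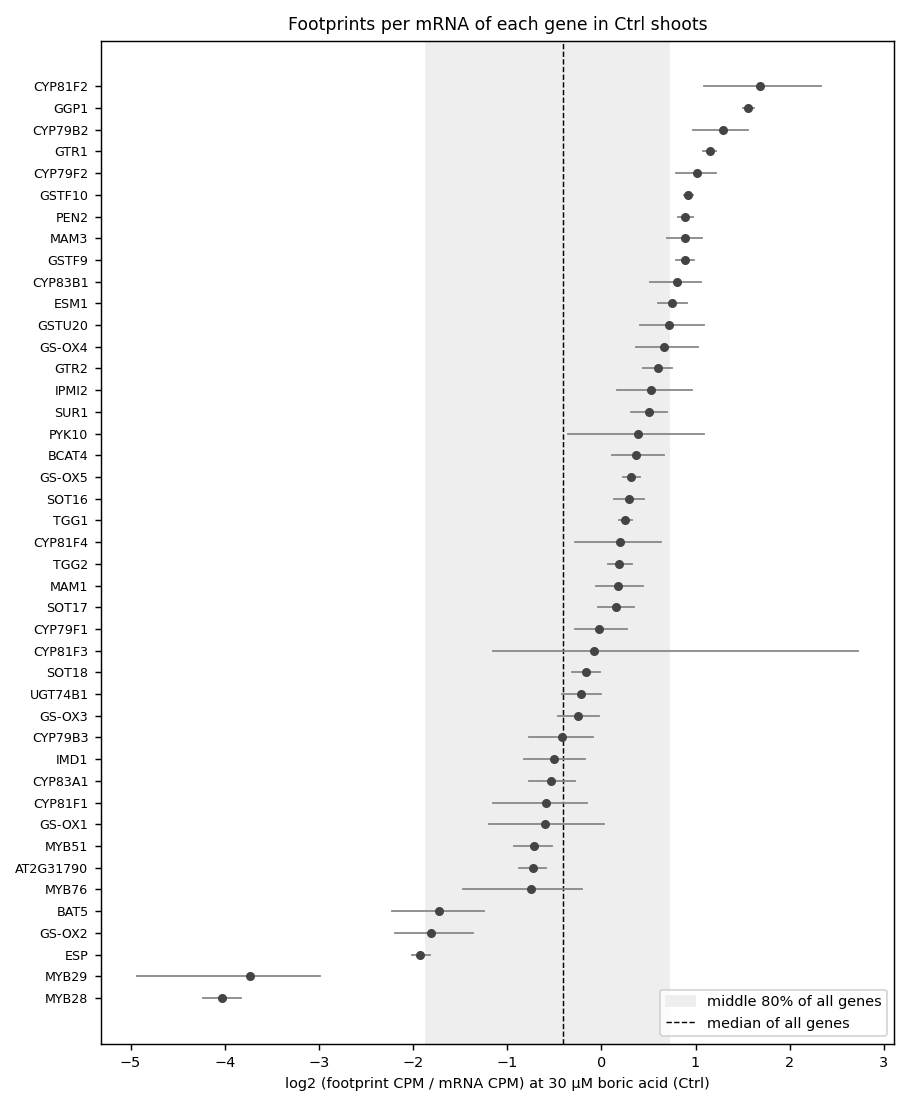
Footprints per mRNA in Ctrl shoots for 43 genes, as log2 of footprint CPM over mRNA CPM. Points use the group levels, lines run from the lowest to the highest ratio over the pairings of a footprint library with an RNA library, the grey band holds the middle 80% of all 17306 genes and the dashed line is their median of -0.41. MYB28 and MYB29 lie far left of the band.

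Whether footprints per mRNA changed with boron was tested by the interaction of assay and supply over all 12 libraries. None of 43 members was called at low boron against Ctrl, beside 0.0231% of all genes, and 4 had an unadjusted p under 0.05. DESeq2 called 1 of them, TGG1, for which edgeR gave -0.70 ± 0.20 (SE, adjusted p = 0.579). None was called at high boron against Ctrl, beside 0.734% of all genes (0.0347% higher and 0.699% lower), and 1 had an unadjusted p under 0.05, with none called by DESeq2. High against low boron, 1 rose and 1 fell, beside 0.324% and 1.3% of all genes and 1.62% called in all. The gene that fell was MYB28, with -1.53 ± 0.33 (SE, adjusted p = 0.0216). Its footprints were 3.24 and 3.26 CPM in low-boron shoots, 3.27 and 2.79 CPM in Ctrl shoots and 1.55 and 2.60 CPM in high-boron shoots, which set the highest mRNA group beside the lowest footprint group. Only 21 and 19 footprints were counted in the high-boron libraries and 77 and 34 in the low-boron libraries. The gene that rose was MYB51, with 0.95 ± 0.21 (SE, adjusted p = 0.0258). Its footprints per mRNA were -0.58 on the log2 scale in high boron and -1.53 in low boron, since its mRNA differed more between the groups than its footprints did. The MYB28 call was lost without either low-boron RNA library, high-boron RNA library 2, either low-boron footprint library or high-boron footprint library 2 (adjusted p = 0.0532 to 0.176). The MYB51 call was lost without the same libraries except low-boron footprint library 3 (0.0797 to 0.219). DESeq2 called TGG1 as well in this comparison (adjusted p = 0.00383), for which edgeR gave 0.67 ± 0.20 (SE, adjusted p = 0.126).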

How the data were processed

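RNA-seq and ribosome profiling of whole shoots were read from 2 tables of raw counts per gene that the authors deposited, 1 for RNA reads and 1 for footprints placed by their ribosomal P-site, both over coding sequences per the file headers and names. The submitters' processing notes name Bowtie2 and SAMtools; versions, build, annotation, filters and the strand setting are not given in the sources used here. Column names carry the numbers 2 and 3 where the labels number replicates 1 and 2, so columns were mapped to groups, not to single samples. Deviations from the group means of equally numbered libraries correlated between -0.019 and 0.185, so the numbers were not treated as pairs.

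Counts were tested with edgeR 4.0.16 in R 4.3.3 (TMM scaling, filterByExpr, quasi-likelihood test, the 3 groups of an assay in 1 fit, Benjamini-Hochberg adjustment over all genes tested, threshold 0.05). This kept 18403 genes for mRNA, 17697 for footprints and 17306 for footprints per mRNA, tested as the interaction of assay and supply over 12 libraries. Standard errors were taken from the F statistic, as the size of the log2 difference over root F. Alternatives were DESeq2 1.42.0, its size factors in edgeR, no filter, a replicate block, 2-group fits and leaving out each library. The 3 main edgeR fits were tested on simulated data with changes set at low boron, for low boron against Ctrl only. The alternatives were not tested in this way. No 2 libraries held identical counts, and replicates differed by more than sampling noise. Counting error alone limits genes with few reads.

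Gene names come from the files' identifiers through RefSeq's Arabidopsis table (TAIR10.1), where all 46 matched. The 46 genes, the 41 further genes and the cell type markers were chosen with earlier results of these data known. Any of the 46 could be named. Of the further genes, at most 5 per comparison were named, the called ones of largest change with a mean log2 CPM of at least 1. Coding lengths were not used here, so levels of different genes are not compared.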

Additional observations from a re-analysis of the deposited data

Results flagged for a closer look

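The difference in footprints per mRNA between high and low boron was past the threshold of the interaction test for MYB28 and MYB51. For MYB28 the log2 difference was -1.53 (adjusted p = 0.0216), with 1 of 43 members lower, beside 1.3% of all genes. For MYB51 it was 0.95 (adjusted p = 0.0258), with 1 of 43 members higher, beside 0.324% of all genes. Both calls were lost when some single libraries were left out, and MYB28 had few footprints.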

How the results depend on the processing

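Of 82 calls of a member in a comparison, 45 were kept under every alternative tried and 37 were lost under at least 1, and of 314 that were not called, 40 passed under at least 1. Leaving out 1 library at a time gave 15 to 33 members called in mRNA at low boron against Ctrl (22 with all libraries), 7 to 19 at high boron against Ctrl (10) and 22 to 35 high against low (32), with 2 to 5 (4), 0 to 1 (0) and 8 to 14 (12) in footprints and 0, 0 and 0 to 2 (2) in footprints per mRNA. The lowest mRNA count at low boron came without low-boron library 3 and the highest without Ctrl library 3. The lowest at high boron against Ctrl came without high-boron library 2 and the highest without Ctrl library 2. Over all genes, mRNA calls at low boron were also fewest without low-boron library 3. At high boron they were fewest and most without the same libraries as for the members. A lone library was assumed to vary like the other groups. With no filter on low counts, 16 members were called in mRNA at high boron against Ctrl, 8 in footprints at low boron and 3 in footprints at high boron (10, 4 and 0 with the filter). Of all genes, 9.79%, 15.2% and 3.07% were called there (9.06%, 15% and 1.98% with the filter). DESeq2 called 1 member in footprints per mRNA at low boron (0 in edgeR), beside 0.0809% of all genes (0.0231% in edgeR). With a replicate block, 1 member, PYK10, was called in footprints at high boron (0 without it), beside 2.81% of all genes. The other counts were 25, 12 and 33 in mRNA, beside 33.5%, 8.94% and 42.5% of all genes. They were 6 and 14 in footprints, beside 18.1% and 23.6%, and 0, 0 and 2 in footprints per mRNA, beside 0.0116%, 0.93% and 1.9%. No pairing was assumed, since the numbers of the libraries are only numbers here. A sign change was counted as a reversal only if the difference was called in either fit, and 1 was found. IPMI2 mRNA at low boron was -0.04 with all libraries, -0.34 without Ctrl library 2 and 0.33 without Ctrl library 3. Signs of uncalled differences changed as well. For mRNA at low boron, BCAT4 had 0.08 with all libraries and -0.16 to 0.36 over the alternatives, and GS-OX1 had 0.14 and -0.17 to 0.51. Over all genes, DESeq2 called 3938 in mRNA at low boron and 927 at high boron (6120 and 1667 in edgeR), and 668 were called in footprints at high boron with no filter (350). In footprints per mRNA at low boron, 4 genes were called in edgeR, 14 in DESeq2, 2 with the block and 2 in the 2-group fit, and at high boron 127 were called, against 58 in the 2-group fit. The causes of these shifts were not tested. Footprint counts of MYB28, MYB122 and ESP, and mRNA reads of CYP81F3, were too few for a difference to be detectable at this depth unless it was large.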
